A study of Salmo salar with 12 samples.

Results

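The hepatic response of juvenile Atlantic salmon (parr) to the lowest of the uranium concentrations tested, 0.25 mg/L, was compared with that of unexposed fish. The comparison rested on 6 of the 12 arrays of the series, namely the 3 arrays of the low U group and the 3 arrays of the control group, chosen by their labels alone. The low U group was kept for 48 h in lake water with 0.25 mg/L of depleted uranium, given as dissolved uranyl acetate dihydrate, and the control group was kept for 48 h in the same water at 0 mg/L. The medium U and high U groups, at 0.5 and 1.0 mg/L, also had 3 arrays each and shared the estimate of the spread. All fish were held unfed and in the dark in a static system, and each liver RNA sample, labelled with Cy3 alone, went on 1 custom-made salmonid oligonucleotide array. The methods describe no replicate tanks, so tank and dose cannot be told apart. The p-values and standard errors (SE) use the variation among samples within groups, estimated jointly over all 12 arrays. They take no account of variation between tanks.

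Uranium dissolved in water is present largely as the uranyl ion and its complexes, which bind phosphate and carboxylate groups and can enter fish across the gills. The liver is a site of metal accumulation and detoxification, and it also makes plasma proteins, stores and releases glucose and produces bile. Mitochondria produce most of the ATP of the hepatocyte by passing electrons along membrane complexes to oxygen, a process that also yields hydrogen peroxide, and peroxiredoxins and related thiol proteins remove it.

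An array held 61657 salmonid spots for 55468 probes, of which 29456 were tested because their signal stood well above background throughout at least 1 of the 4 groups. Levels are given on the log2 scale relative to the 75th percentile of the array, so that 0 is that percentile and negative levels are dimmer. The low U arrays were brighter, with a 75th percentile of 113, 138 and 127 intensity units in low U replicates 1 to 3, against 73.8, 55.7 and 71.2 in control replicates 1 to 3. The probes that stood well above background made up 49.2% to 55.1% of each low U array and 45.1% to 49.3% of each control array. A region of low U replicate 2 stood apart. In 23 of the 216 blocks of 16 rows by 20 columns into which the array was divided, which held 11.7% of its salmonid spots, the residuals spread over up to 9.87 log2 units, against a median block of 1.05 on that array. Probes spotted both inside and outside this region disagreed by more than 1 log2 unit between their spots in 41.5% of cases on low U replicate 2 and in at most 7.41% of cases on the other arrays. A single such block, with 0.503% of the salmonid spots, lay on control replicate 2, and none lay on the other arrays. Outside the disturbed blocks, low U replicate 2 correlated with the other arrays at r = 0.92 to 0.98 across 20040 spots, against 0.81 to 0.86 across 22783 spots when they were included. The counts of calls are therefore also given without low U replicate 2.

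**Figure D1:**
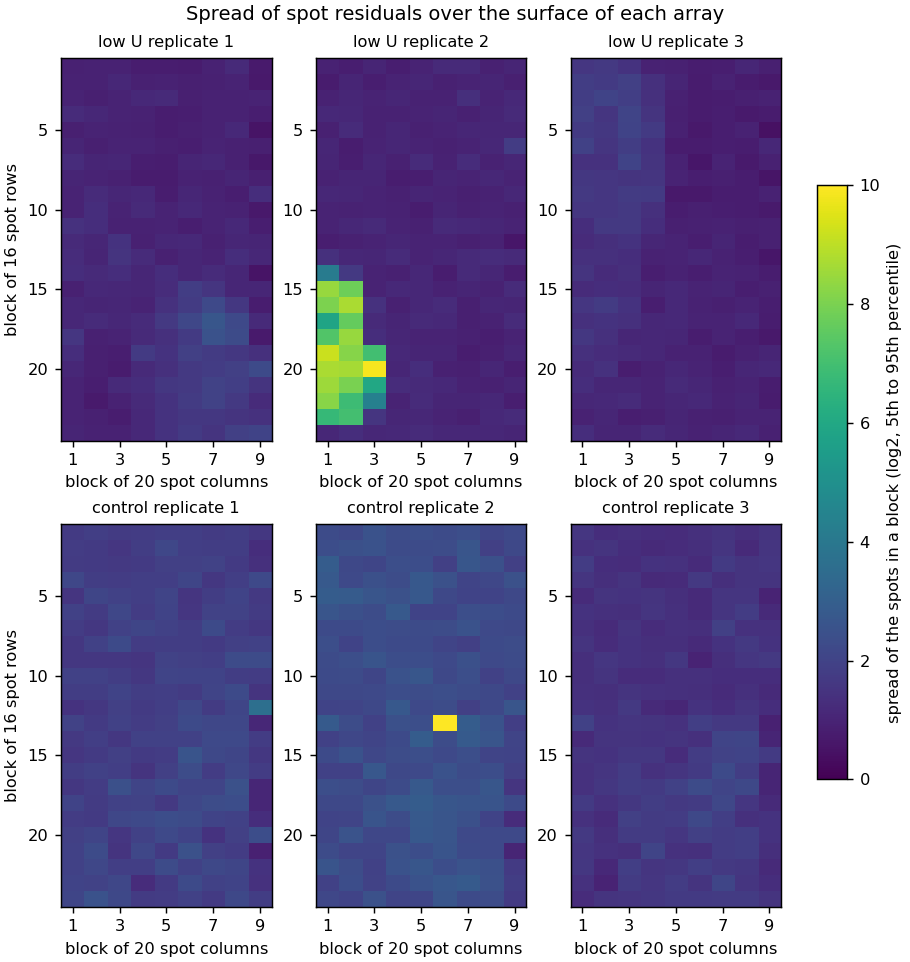
Spread of the spot residuals (log2 units, 5th to 95th percentile, colour scale) in each block of 16 rows by 20 columns of spots, for the 3 low U arrays (top) and the 3 control arrays (bottom). The bright patch on low U replicate 2 is its 23 disturbed blocks, and the bright block on control replicate 2 is the only other one.

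At low U, 1834 of the 29456 probes tested (6.23%) differed from the control, the limits being 0.05 for the adjusted p and 1.5 for the fold change. Of these, 1183 (4.02% of those tested) rose and 651 (2.21%) fell, so that increases made up 64.5% of the calls. Leaving out the disturbed blocks gave 2094 calls of 29518 probes tested (7.09%), and 1789 of the 1834 calls were kept. Without low U replicate 2, 632 of 29924 probes (2.11%) were called, of which 571 were among the 1834. Fitting only the 6 arrays of both groups gave 1 call of 26970 (0.00371%), and 0 of the 1834 calls were kept. With the disturbed blocks left out as well, that fit gave 622 calls of 27366 (2.27%), and 553 of the 1834 were kept. All 3 low U arrays lay on one side of all 3 control arrays for each of the 1834 probes, whereas this held for 8253 (28.0%) of all probes tested. Leaving out any other low U or control array gave between 639 calls (low U replicate 1) and 2800 calls (control replicate 3), with 792, 709 and 667 without control replicate 1, control replicate 2 and low U replicate 3. With slide as a block, 3646 probes (12.4%) were called, of which 1831 were among the 1834 and 52.99% were higher. With another background correction, 78.2% of the calls were increases and the median of all probes was -0.08. Under no alternative was one of these probes called in the opposite direction.

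The changes were mostly of moderate size. The median log2 fold change was 1.18 among the probes that rose and -1.09 among those that fell, which correspond to 2.27-fold and 2.13-fold, against 0.08 over all probes tested. At least a 2-fold change was reached by 1237 probes (823 higher, 414 lower), a 4-fold change by 122 (84 higher, 38 lower) and an 8-fold change by 5 (3 higher, 2 lower). The called probes varied less among the low U arrays than among the control arrays, with median SDs of 0.19 and 0.29 log2 units. Over all probes tested the medians were 0.28 and 0.33 in the same order, so the direction was not particular to the called probes. Each of the 3 slides carried 1 array of either group. Since the groups did not overlap at any called probe, the sign within each slide was fixed by the calls, and the values show only the size. On slides 1, 2 and 3 the probes that rose had a median low U minus control difference of 1.11, 1.37 and 0.98, and those that fell had -1.08, -1.35 and -0.80, against 0.06, 0.15 and -0.00062 over all probes tested. The direction of each change is relative to the rest of the array. When the arrays were scaled to 3 probes of the spike-in RNA added to each sample before labelling, the median of all probes moved to 0.80 and 99.3% of the calls were increases, so a decrease below stands for a level that fell against the bulk of the probes.

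**Figure D2:**
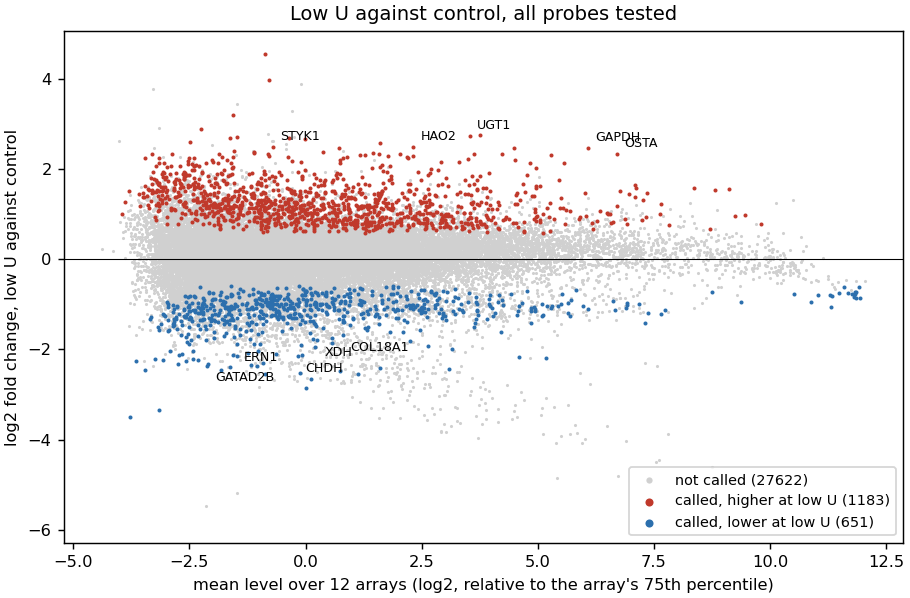
Log2 fold change at low U against control (vertical axis) against the mean level over the 12 arrays (horizontal axis, log2 relative to the 75th percentile) for all 29456 probes tested. The 1183 probes that rose are red and the 651 that fell are blue, and the named genes belong to the largest changes described in the text.

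The array files give no gene names. Names were available for 898 probes through the study's own list of responding genes, and 830 of these were tested. Since that list was chosen on these samples, 723 of the 830 (87.1%) were called, 513 higher (61.8%) and 210 lower (25.3%), and a count of named genes is not independent evidence of a direction. The same holds for the counts by gene list below, which cover only the members with a name. The other 1111 called probes have no name here.

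Among the named probes that could be measured in both groups, the largest increase was that of UGT1, a UDP-glucuronosyltransferase, one of the enzymes that attach glucuronic acid to bilirubin, steroids and foreign compounds. Its level was 4.20, 3.70 and 4.07 on the low U arrays, against 1.13, 0.72 and 1.93 on the control arrays, a log2 fold change of 2.73 ± 0.34 (SE, n = 3 each, adjusted p = 0.0048). UGT1 had 5 named probes, all called higher, at 1.01 to 2.73, and the values given are those of the highest. HAO2, a peroxisomal hydroxyacid oxidase that produces hydrogen peroxide, had 2.80, 2.92 and 2.88 at low U and 0.29, -0.05 and 0.90 in the control (2.49 ± 0.25, adjusted p = 0.0041). GAPDH, the glycolytic glyceraldehyde-3-phosphate dehydrogenase, had 6.68, 6.61 and 6.71 at low U and 4.11, 3.52 and 4.96 in the control (2.47 ± 0.32, adjusted p = 0.0050). In each of these genes the low U arrays lay close together and well above the highest control array. PRDX2, a peroxiredoxin of the cytosol, had 1.19, 0.99 and 0.68 at low U, against -1.70, -1.85 and -0.75 in the control, a log2 fold change of 2.39. XBP1, the transcription factor of the unfolded protein response, had 2.88, 2.39 and 2.45 at low U and -0.16, -0.29 and 1.13 in the control (2.34). OSTA, a subunit of the organic solute transporter that moves bile acids across the basolateral membrane, was the brightest of the 10, with 7.61, 7.24 and 7.03 at low U and 4.77, 4.34 and 5.78 in the control (2.33). Control replicate 3 was the highest control array for each of these 6 genes. That it stayed below the lowest low U array was a condition of the choice. The remaining increases among the 10 were those of STYK1 (a protein kinase, 2.50), MASP1 (described as mannose-binding lectin-associated serine protease-3a, 2.36), EEF1AS (an elongation factor of translation, 2.35) and C2ORF25 (a protein of cobalamin metabolism, 2.32). The STYK1 spot of low U replicate 2 lay in a disturbed block, and its probe was well above background on 1 control array only. The OSTA value of control replicate 2 came from the disturbed block of that array. With the disturbed blocks left out, OSTA changed by 2.02 and was still called.

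Among the decreases, GATAD2B, a subunit of a chromatin-remodelling and deacetylase complex, had -2.68, -3.50 and -2.51 at low U and -0.48, -0.61 and -0.62 in the control, a log2 fold change of -2.33 ± 0.28 (SE, n = 3 each, adjusted p = 0.0045). CHDH, the mitochondrial enzyme that oxidises choline on the way to betaine, had -0.32, -1.43 and -0.73 at low U and 1.20, 1.80 and 0.93 in the control (-2.14 ± 0.32, adjusted p = 0.0075). ERN1, the stress sensor of the endoplasmic reticulum whose RNase activity splices the XBP1 transcript, had -1.46, -1.98 and -2.00 at low U and -0.19, 0.40 and 0.01 in the control (-1.89 ± 0.23, adjusted p = 0.0041). ERN1 and XBP1 thus moved in opposite directions on the same arrays. XDH, which makes uric acid from purines, had -0.13, -0.51 and -0.15 at low U and 1.35, 1.90 and 1.32 in the control (-1.79 ± 0.28, adjusted p = 0.0085). DNMT1, which maintains DNA methylation, had -2.11, -2.70 and -2.83 at low U and -0.89, -0.81 and -0.68 in the control, a log2 fold change of -1.75. COL18A1, a collagen of basement membranes, had 0.44, 0.31 and 0.19 at low U, against 2.18, 2.18 and 1.61 in the control (-1.68). The groups did not overlap in any of these genes, as was required for the choice of the largest changes. The other decreases among the 10 were TPD52L1 (-2.22), MMP25 (-1.80, a probe whose description names another matrix metalloproteinase), si:ch211-234g24,1 (-1.74, a leucine-rich repeat protein) and ATP2A2 (-1.71, the calcium pump of the endoplasmic reticulum). TPD52L1 was well above background on 1 low U array, and GATAD2B and ATP2A2 on 2 of them. The DNMT1 value of control replicate 2 came from the disturbed block of that array. With the disturbed blocks left out, DNMT1 changed by -1.76. All 20 genes were still called without low U replicate 2, and all 10 decreases were still called after scaling to the spike-ins.

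**Figure D3:**
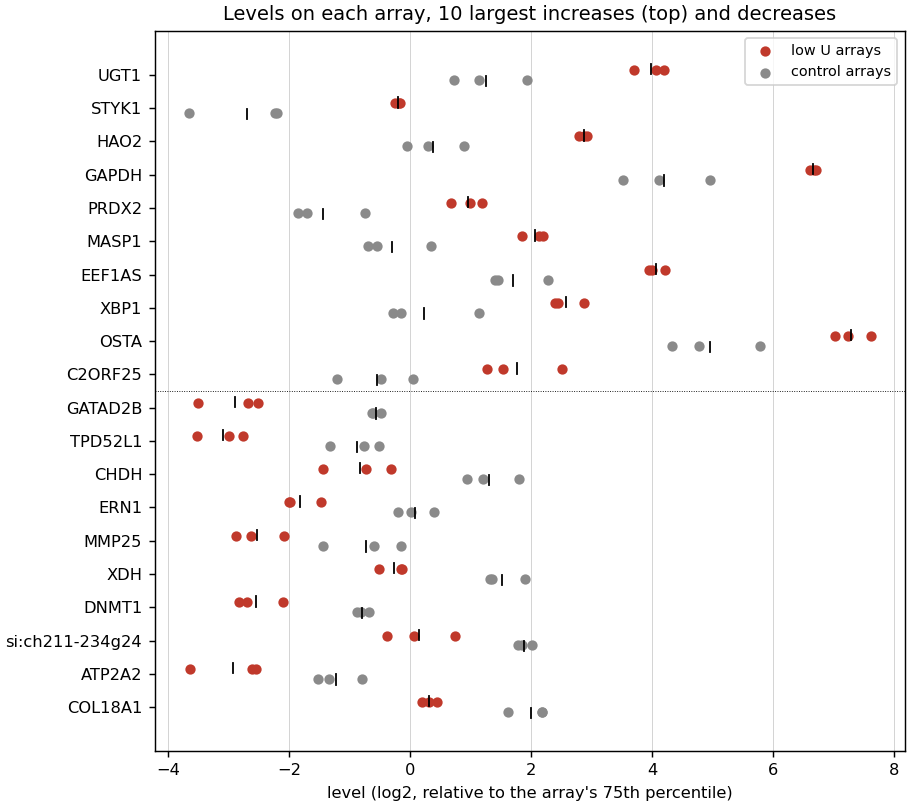
Level of the 10 named genes with the largest increases (top) and the 10 with the largest decreases (bottom) on each low U array (red) and each control array (grey), in log2 units relative to the 75th percentile, with a black bar at the mean of each group. The low U and control arrays do not overlap in any of the 20 genes, which was a condition of the choice. The largest gap between means is that of UGT1.

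Some larger differences belonged to probes that were not well above background on any control array and were therefore not eligible for those 20, so the genes named in this paragraph were chosen after their values were seen. For these probes the fold is a lower bound, taken against the lowest signal that was well above background on each control array. NP, the purine nucleoside phosphorylase, had -0.07, 0.70 and 0.91 at low U, against -4.67, -3.14 and -4.30 in the control, and was at least 8.46-fold higher at low U. NMD3, an adaptor for the nuclear export of the large ribosomal subunit, had 0.03, 0.25 and -0.02 at low U, against -4.16, -4.36 and -3.16 in the control, and was at least 6.28-fold higher. UGT2A1 was at least 3.69-fold higher, CBR1 (a carbonyl reductase) at least 2.86-fold higher and RUVBL1 (an ATPase of chromatin-remodelling complexes) at least 2.22-fold higher. In all, 620 tested probes were well above background on the 3 low U arrays and on no control array, of which 172 were called and 43 had a bound of at least 2-fold. The reverse held for 28 probes, of which 19 were called and 17 had such a bound. MAO, a monoamine oxidase, was among them, with -3.29, -4.49 and -3.34 at low U and -1.62, -1.42 and -1.98 in the control, at least 2.74-fold lower at low U. Both sets qualified for the tests through the group in which they were bright, so their shares of calls are not independent of that filter. Over all probes tested, 6.23% were called. The low U arrays were the brighter ones, as given above, and the part of this brightness in the unequal counts of 620 and 28 probes was not tested. Over the probes well above background on all 6 arrays, 1322 were called, and 58.9% of them rose.

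Of the mitochondrial electron transport chain, names were available for 3 of the 38 listed genes of complex I, 3 of 4 of complex II, 0 of 9 of complex III, 4 of 22 of complex IV and 2 of 26 of complex V, so most of the chain is not described. All 3 named probes of complex II (succinate dehydrogenase) and all 6 of complex IV (cytochrome c oxidase and its assembly, median log2 fold change 1.60) rose. Over all named probes tested, 61.8% were called higher. SDHD, a membrane anchor of complex II, had 1.76, 2.04 and 1.82 at low U and 0.31, 0.19 and 0.69 in the control (1.47 ± 0.20, adjusted p = 0.0057). SDHC, the other anchor subunit, changed by 1.45, and SDHA, the flavoprotein subunit, was well above background on no control array and was at least 2.48-fold higher at low U. COX6B1, a nuclear-encoded subunit of complex IV, had 5.16, 5.18 and 5.02 at low U and 3.20, 3.59 and 3.54 in the control (1.68 ± 0.20, adjusted p = 0.0041). The 3 probes of COX7A2L, a protein of supercomplex assembly, rose by 1.43 to 1.94. These lists kept 3 and 5 of their increases without low U replicate 2. Against them, MT-CO3, a core subunit of complex IV encoded in the mitochondrial genome and outside the list, had 0.61, 0.19 and 0.27 at low U and 1.60, 2.13 and 1.48 in the control, a log2 fold change of -1.38 (adjusted p = 0.012, chosen after its value was seen). Complex I (NADH dehydrogenase) was divided, with 3 probes higher and 1 lower. The 2 probes of NDUFA3 changed by 0.84 and 0.89, whereas NDUFS6, an accessory subunit like it, had -0.30, -0.05 and -0.09 at low U and 1.38, 1.51 and 1.25 in the control (-1.52 ± 0.22, adjusted p = 0.0068). Without low U replicate 2, 1 of the increases and the decrease of complex I were still called. In complex V (ATP synthase), ATP5J changed by 0.79 (adjusted p = 0.018), and ATP5B had a difference of 0.48 that missed the limit (adjusted p = 0.12). Neither was called without low U replicate 2.

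Other mitochondrial genes were named in smaller numbers, and 61.8% of all named probes tested were called higher. In the citric acid cycle, FH (fumarate hydratase, 1.40) and DLD (dihydrolipoamide dehydrogenase, 1.13) rose and DLST (a component of the oxoglutarate dehydrogenase complex, -0.65) fell, although DLST was at 0.07 after scaling to the spike-ins and was not called without low U replicate 2. Of 5 probes of protein import and membrane carriers 3 rose, including TIMM17A, a channel component of the inner membrane (1.33), and SLC25A20, the carnitine-acylcarnitine carrier (1.61). SLC25A5, an ADP/ATP carrier, had a difference of 0.55 that was not called. The lowest of the 5 probes went the other way, at -0.67, and was not called either. At medium U all 5 were called higher. Without low U replicate 2, 2 of the import and carrier probes and 3 of those of the mitochondrial ribosome were called. Of 5 probes of the mitochondrial ribosome 4 were called higher, among them MRPL39 at 1.76, which was well above background on 1 control array. MRPS9 was near the background, at least 1.26-fold higher at low U, and MRPL33 was not well above background on any array of either group. The signs of MRPS9 and MRPL33 turned under another background correction.

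The thiol and peroxide defence genes rose at 5 of 5 named probes (median log2 fold change 1.56). These covered 5 of the 31 listed genes, and 61.8% of all named probes tested were called higher. PRDX3, the peroxiredoxin of mitochondria, had 2.75, 3.01 and 2.62 at low U and 1.23, 0.75 and 1.72 in the control (1.56 ± 0.25, adjusted p = 0.0088). NQO1, a quinone reductase induced by electrophiles in mammals, had -0.03, -0.41 and -0.10 at low U and -2.66, -2.39 and -2.41 in the control (2.30 ± 0.25, adjusted p = 0.0041), with 1 control array well above background. GLRX5, a glutaredoxin of iron-sulfur cluster assembly, changed by 1.19, and TXN2, the mitochondrial thioredoxin, changed by 0.64 and was the member lost without low U replicate 2. In the list of glutathione and sulphur conjugation 2 of 21 genes were named, neither of them a glutathione gene, and all 3 probes rose. They were SULT2B1, a sulfotransferase of sterols (1.98), and the 2 probes of UGT2A1, which are counted again in the family that follows. Among the named probes, 11 belonged to UDP-glucuronosyltransferases, a family chosen with its values known, and all 11 were called higher, also after scaling to the spike-ins. The 9 that were well above background on control arrays rose by 1.17 to 2.73, and the other 2 are known by bounds only, at least 3.69-fold (UGT2A1) and at least 1.43-fold. Since names come from responding genes, this count does not cover members of the family without a name. In the metal-handling list the one named member was SLC40A1, the cellular iron exporter ferroportin, with 4.32, 4.85 and 4.49 at low U, against 5.54, 5.83 and 5.72 in the control (-1.15). Its decrease was not called after scaling to the spike-ins. Among the P450 genes CYP2U1 (1.77) and CYP4V2 (1.36) rose, and CYP19A1, the aromatase that makes oestrogens, was lower at -1.28, a decrease not called after that scaling.

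Among the lists, glycolysis and gluconeogenesis had the largest median change. All 9 of its named probes rose, with a median log2 fold change of 2.00, and 8 were still called without low U replicate 2. They covered 6 of the 36 listed genes, and 61.8% of all named probes tested were called higher, so the rest of the pathway is not described. TPI1, triosephosphate isomerase, had 3.34, 3.28 and 3.42 at low U and 0.93, 0.90 and 1.71 in the control (2.16 ± 0.25, adjusted p = 0.0041), and its other probe changed by 0.80 and was lost without low U replicate 2. UGP2, which makes the UDP-glucose needed for both glycogen and glucuronic acid, changed by 2.15 and 2.00 at its 2 probes. G6PC, the glucose-6-phosphatase that releases free glucose, had a smaller log2 fold change of 0.95.

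Of the genes of amino acid breakdown, 9 of 53 and 6 of 26 in the pair of lists were named. Over all named probes tested, 61.8% were called higher. Of 9 probes for tryptophan, tyrosine and other amino acids 8 rose, including OAT (ornithine aminotransferase, 1.75), AGXT (alanine-glyoxylate aminotransferase, 1.59) and KMO (an oxygenase of the kynurenine pathway, 1.16), and AASS, the first enzyme of lysine breakdown, fell (-0.91), though not after scaling to the spike-ins. Of 6 probes for ketone bodies and branched-chain amino acids 5 rose, led by BCKDHB, a subunit of the branched-chain keto acid dehydrogenase (1.66), and ALDH6A1, a dehydrogenase of valine breakdown (1.42). Without low U replicate 2, 4 of the probes in either list were called, all of them higher. Lipid genes were few. FADS2, the delta-6 desaturase of polyunsaturated fatty acid synthesis, had 2.63, 2.64 and 2.36 at low U and 0.72, 0.26 and 1.07 in the control (1.86 ± 0.23, adjusted p = 0.0048). CPT1A, the carnitine transferase that admits fatty acids to mitochondria, was contradictory, with 1 probe at 1.25 and the other at -0.64, or 0.081 after scaling to the spike-ins. HMGCS1, of the mevalonate pathway, had 2.72, 2.59 and 2.64 at low U and 3.91, 4.15 and 3.68 in the control (-1.26), and NR1H4, the bile acid receptor, rose by 1.38. The decrease of HMGCS1 was not called after scaling to the spike-ins.

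Among transcripts of secreted proteins, all 8 named coagulation probes rose (median log2 fold change 1.24), and 5 were still called without low U replicate 2. They covered 6 of the 26 listed genes, and 61.8% of all named probes tested were called higher. F7, the factor that starts the tissue factor pathway, had 4.40, 4.10 and 4.08 at low U and 2.48, 2.35 and 3.02 in the control (1.58 ± 0.21, adjusted p = 0.0054). F10 changed by 1.56 and 1.25 at its 2 probes and F9 by 1.87 and 1.21. PROC, the anticoagulant protein C, changed by 1.24. Of 4 complement probes 2 fell and 1 (MASP1, above) rose. C4A, of the classical pathway, had 1.05, 0.97 and 1.33 at low U and 2.19, 2.72 and 2.21 in the control (-1.25 ± 0.22, adjusted p = 0.012), and CFB, of the alternative pathway, had a difference of -0.58 that was not called (adjusted p = 0.10). The decrease of C4A was not called after scaling to the spike-ins, and the sign of CFB turned. The other complement decrease was larger, at -1.61, and was still called after that scaling. JAK1, a kinase of cytokine signalling, had 2.44, 2.46 and 2.23 at low U and 3.38, 3.39 and 3.09 in the control (-0.91 ± 0.19, adjusted p = 0.021), which was lost without low U replicate 2 (adjusted p = 0.056) and after scaling to the spike-ins.

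Genes of protein folding and secretion in the endoplasmic reticulum rose at 4 of 4 probes (median log2 fold change 1.37). These covered 3 of the 19 listed genes, and 61.8% of all named probes tested were called higher. SEC61B, of the translocation channel, had 3.38, 3.30 and 3.54 at low U and 1.28, 1.70 and 1.80 in the control (1.81 ± 0.20). P4HB, protein disulfide isomerase, was among the brightest named probes, with 9.34, 8.85 and 8.92 at low U and 6.87, 7.82 and 7.79 in the control (1.54 ± 0.30), and its dimmer probe changed by 0.76. The dimmer P4HB probe and PDIA4 (1.19), a related isomerase well above background on 1 control array, were lost without low U replicate 2. HSP90AB1, a cytosolic chaperone, had 3.08, 3.17 and 3.05 at low U and 1.15, 1.27 and 1.95 in the control (1.65 ± 0.26, adjusted p = 0.0088).

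In gene expression itself, all 6 named probes of RNA polymerase II and general transcription factors were called higher, and 4 were called without low U replicate 2. They covered 4 of the 29 listed genes, and 61.8% of all named probes tested were called higher. TAF13, of the TFIID complex, changed by 1.39 and POLR2F, a subunit shared by the RNA polymerases, by 1.22. The sixth, GTF2A2, was not well above background on any array of either group. Of 7 mediator probes, a family chosen with its values known, 6 rose and 1 (MED13, -0.87) fell. The 6 were 3 probes each of MED7 and MED10. The decrease was not called after scaling to the spike-ins or without low U replicate 2. Cytosolic ribosomal genes rose in 7 of 10 probes and fell in 2, with RPLP0 at 5.12, 4.87 and 4.93 at low U and 2.24, 3.01 and 3.06 in the control (2.20 ± 0.24, adjusted p = 0.0041) and RPS3A at 1.51. Neither decrease, of which RPS19 (-1.26) was one, was called after scaling to the spike-ins, and 7 increases and 1 decrease were called without low U replicate 2. Translation factors showed no common direction, with 2 probes higher, 3 lower and 3 not called. The 2 that rose were those of EIF2B2 alone, at 1.52 and 0.75. In contrast, EIF4E, the cap-binding factor, changed by -0.76 and EIF1B by -0.65. EIF3A changed by -0.64 at 1 probe, with 0.64 at its other probe, which was not called. These 3 decreases were not called without low U replicate 2 or after scaling to the spike-ins, where the signs of EIF1B and EIF3A turned. In splicing, LSM3 (1.17) and SF3B5 (1.19) rose and U2AF2, which recognises the polypyrimidine tract, fell by 1.57 on the log2 scale. LSM3 was not called without low U replicate 2.

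In protein turnover and damage responses, 8 proteasome and ubiquitin probes were named, of which 5 rose and 1 fell, and 1 of each was called without low U replicate 2. PSMA4, of the proteasome core, changed by 0.92 and UBE2D2, a ubiquitin-conjugating enzyme, by -1.36. All 4 probes of ubiquitin specific peptidases, chosen with their values known, fell, by -0.72 to -1.47. USP48 had 2 named probes, at -1.09 and -0.72. Neither the 4 peptidase probes nor UBE2D2 were called after scaling to the spike-ins, and only USP49 of the 4 was called without low U replicate 2. In DNA repair and replication 2 of 42 genes were named, and both probes fell. RAD23B, of damage recognition in nucleotide excision repair, had -1.20, -1.33 and -2.00 at low U and -0.25, 0.41 and 0.17 in the control (-1.62 ± 0.26, adjusted p = 0.0098). The other changed by -0.93. Only 1 of the 2 decreases was called without low U replicate 2, and only 1 after scaling to the spike-ins. Of 6 probes of cell death effectors 5 rose and 1 fell, and 4 and 1 were called without low U replicate 2. Over all named probes tested, 61.8% were called higher and 25.3% lower. AIFM1, a mitochondrial flavoprotein that also acts in cell death, had 0.34, 0.68 and 0.67 at low U and -1.39, -1.17 and -0.70 in the control (1.65 ± 0.26, adjusted p = 0.0085). BAX, which permeabilises the outer mitochondrial membrane, had 0.78, 0.84 and 0.86 at low U and 0.03, -0.08 and 0.01 in the control (0.84 ± 0.14), while MCL1 (0.97) and TMBIM6 (1.16), which oppose cell death, rose as well.

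Structural genes were divided, where 61.8% of all named probes tested were called higher and 25.3% lower. In the adhesion and matrix list 3 probes rose and 4 fell (2 and 3 without low U replicate 2), with HSPG2 (perlecan, 1.48) and IGSF5 (1.24) higher and FN1 (fibronectin, -1.25) and COL18A1 lower. In the membrane skeleton and actin list 4 rose and 4 fell (2 and 3 without low U replicate 2), among them MYL6 (a myosin light chain, 1.19), ARPC3 (of the actin-nucleating complex, at least 1.86-fold higher) and RDX (which links actin to the membrane, -1.22). After scaling to the spike-ins the 4 decreases of the second list and those of FN1 were not called. Of 8 probes of small GTPase signalling 7 rose, including RAP1B (1.18) and RAB13 (1.12), but 3 of them were called without low U replicate 2. Of 5 lysosomal probes 4 rose (3 without low U replicate 2), led by ACP5, an acid phosphatase (1.95), GRN, progranulin (1.48), and ATP6V1H, of the proton pump (1.41). ABCC2, the canalicular export pump of conjugates, could not be assigned a direction, since 1 probe was at 1.70 and the other at -1.13. Across all names, 49 genes had several probes, and ABCC2, CPT1A, MSL1 and UBR4 each had a probe called higher and a probe called lower, of which the lower was not called after scaling to the spike-ins.

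Of 29 hepatocyte markers 1 was named, TDO2 (tryptophan dioxygenase), which rose by 1.12 on the log2 scale, so the labelled tissue could be checked with this gene and the coagulation factors only. Of 21 erythrocyte markers 1 was named, HBB1, a beta globin of haemoglobin, with 1.78, 1.54 and 1.48 at low U and 2.85, 2.95 and 2.88 in the control (-1.30 ± 0.15, adjusted p = 0.0041). The low U and control arrays were far apart in HBB1, although the decrease was not called after scaling to the spike-ins. In whole liver, fewer cells of a type and less RNA per cell cannot be told apart, and the part of blood in the other differences was not tested. No marker of exocrine pancreas, leukocytes, endothelium, skeletal muscle or kidney was named.

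**Figure D4:**
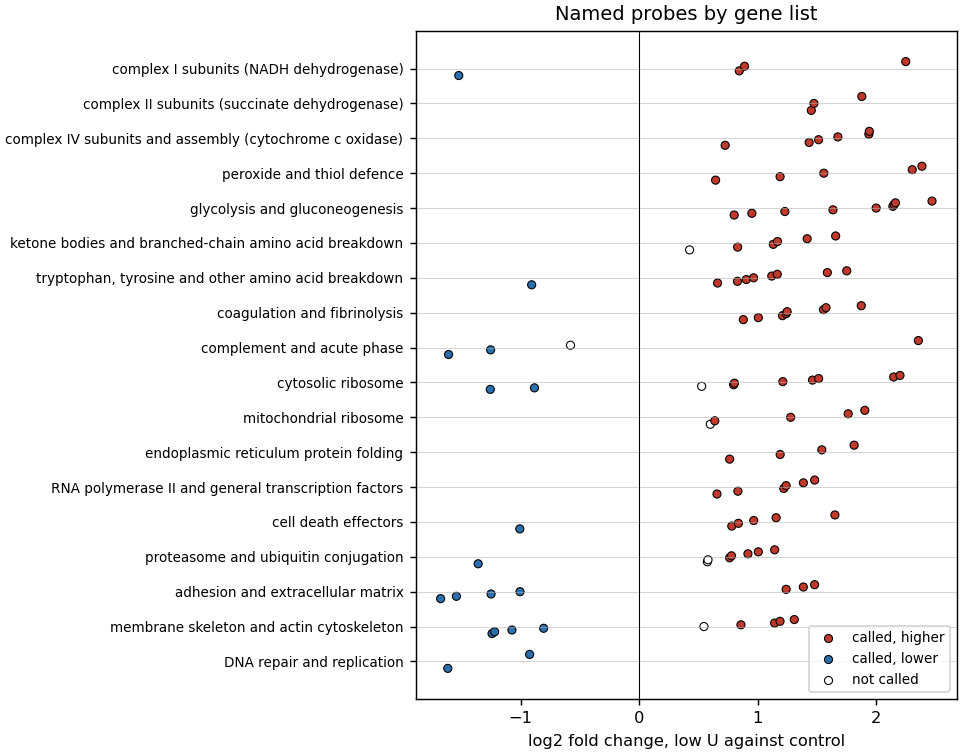
Log2 fold change at low U against control (horizontal axis) of the named probes in 18 gene lists (rows), 1 point a probe, red where called higher, blue where called lower and open where not called. The 9 probes of glycolysis and gluconeogenesis, the 8 of coagulation and the 6 of complex IV lie to the right of 0.

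Most changes seen at 0.25 mg/L were also called at a higher concentration. The 3 doses share the control arrays, so an overlap among them is not independent, and the counts are a description. Of the 1834 probes called at low U, 1654 were also called at medium U, 819 at high U and 794 at both, 860 at medium U but not at high U, and 25 at high U but not at medium U. None was called in the opposite direction at another dose. The totals were 1834 at 0.25 mg/L, 3411 (11.6%) at 0.5 mg/L and 1093 (3.71%) at 1.0 mg/L. The median log2 change of the 1834 probes, in their direction at low U, was 1.14 at 0.25 mg/L, 1.22 at 0.5 mg/L and 0.91 at 1.0 mg/L. Among single genes, the UGT1 probe described above changed by 2.73, 3.18 and 3.16 with increasing dose. SDHD changed by 1.47, 1.57 and 1.61, PRDX3 by 1.56, 1.51 and 1.45 and FADS2 by 1.86, 1.73 and 1.05.

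At low U only, 155 probes (0.526% of those tested) were called, of which 106 were higher and 49 lower. Their median log2 change in the direction at low U was 1.05 at 0.25 mg/L, 0.69 at 0.5 mg/L and 0.65 at 1.0 mg/L. Being called at low U only favours a larger change at that dose, so this order follows largely from the choice of the probes. The change had the same sign at medium U for 154 of them and at high U for 150. They lay near the limit, with a median adjusted p of 0.040 at low U and 0.086 at medium U, where 92 were under 0.1. Without low U replicate 2, 14 of the 155 were still called at low U, and 147 were when the disturbed blocks were left out. The difference between doses was tested directly as low U minus the mean of medium and high U. The control arrays do not enter that difference, but they share in the estimate of the spread and in the choice of probes tested. No probe passed (0 of 29456, lowest adjusted p = 0.92, limma), and 793 (2.69%) had an unadjusted p below 0.05. Among the 155, 37 had an unadjusted p below 0.05. All 3 low U arrays lay on one side of the 6 medium and high U arrays for 22 of the 155, against 1.42% of all probes tested, but being called at low U only is partly a choice for such probes.

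Of the 155 probes 8 had a name, all higher at low U. AACS, acetoacetyl-CoA synthetase, which uses ketone bodies for lipid synthesis, stood out most. Its level was 0.23, 0.28 and 0.08 in the control, 1.62, 1.54 and 0.94 at 0.25 mg/L, 0.14, 0.55 and 0.24 at 0.5 mg/L and 0.36, 0.37 and 0.50 at 1.0 mg/L. Its log2 change against the control was 1.17 ± 0.20 at low U (adjusted p = 0.012), 0.11 at medium U and 0.21 at high U, and it exceeded the mean of the other doses by 1.00, which did not pass adjustment (adjusted p = 1.0). ST3GAL4, a sialyltransferase of glycoproteins, changed by 1.03, 0.57 and 0.48 with increasing dose. CLIC2, an intracellular chloride channel protein, changed by 0.73, 0.46 and -0.28 in the same order. The other genes were CDC34 (a ubiquitin-conjugating enzyme of the cell cycle) at 0.71, 0.47 and 0.35, PTGER2 (a prostaglandin receptor) at 0.63, 0.35 and 0.17, GNAI2 (an inhibitory G protein subunit) at 0.65, 0.54 and 0.24, SBDS (a ribosome maturation factor) at 0.71, 0.55 and 0.38, and PPP4R1 (a phosphatase regulator) at 0.63, 0.57 and 0.25. At medium U, GNAI2, SBDS and PPP4R1 had an adjusted p of 0.042, 0.042 and 0.035 (limma). They were not called there only because of the minimum fold change of 1.5. SBDS, whose spot on low U replicate 2 lay in a disturbed block, was not called when those blocks were left out. Only AACS and ST3GAL4 of these 8 were still called at low U without low U replicate 2.

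**Figure D5:**
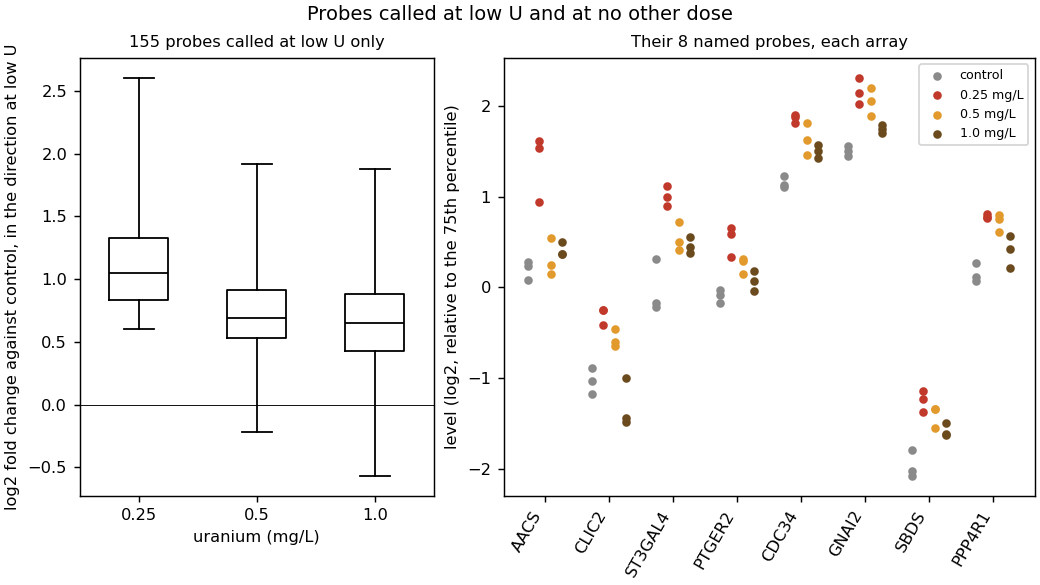
Left, log2 fold change against control at the low, medium and high U concentrations (mg/L) of the 155 probes called at low U only, in their direction at low U (line, median; box, quartiles; whiskers, lowest and highest), and right, the level of the 8 named probes on each array in the control and at each concentration. The medians are 1.05, 0.69 and 0.65 with increasing dose, an order that the choice of the probes favours. AACS is the gene whose low U arrays lie farthest above all other arrays.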

How the data were processed

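The comparison used the scanner files of 12 arrays (4 groups of 3, from the labels). The authors made them with Agilent Feature Extraction 10.7 and deposited a background-subtracted, detrended spot intensity without scaling between arrays. Their own log2 values for 40267 probes, deposited as a separate table, were used here as an alternative and to tie names to probes.

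Control spots were left out, intensities were taken to log2, and each array was centred on the 75th percentile of all its salmonid spots. Spots flagged as non-uniform or population outliers were then left out, and repeated spots of a probe were averaged. Where the disturbed blocks were left out, their spots still entered that percentile. Probes entered the tests if their signal was well above background throughout at least 1 group and each group had 2 values or more. Groups were compared with limma 3.58.1 (R 4.3.3) in 1 fit over the 12 arrays, two-sided, with Benjamini-Hochberg adjustment, a limit of 0.05 and a minimum fold change of 1.5. The threshold printed in the methods is 0.5, which was an alternative. Python 3.11.15 and pandas 2.3.3 served for tables and plots.

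The files pair no probe with a gene. All 1995 rows of the part of the study's gene list used here matched 1 probe each through their fold changes in the log2 table (relative tolerance 2e-05). The authors' comparison values served for this match only and are not reported. Probe sequences and positions were not used here. Genes named included the 10 largest increases and the 10 largest decreases measured in both groups, without overlap between the low U and control arrays. To these were added genes called at low U only and up to 4 members of each gene list by adjusted p. The genes measured by qPCR in the study and, without a name, 2 probes in each direction were added too. Others were chosen after their values were seen and are marked so, except for further members of gene lists such as TXN2 and RPS19. Members and lists were chosen with earlier results of these data known. The disturbed blocks, at over 3.5 times the median spread of an array, were defined after seeing the data. The steps were run on simulated arrays with independent noise at each probe. These held no disturbed blocks, slide effects or differences in brightness, so that run cannot show how such features move the calls. No spot was saturated, and 3 arrays a group limit the precision. Some genes are not reported here.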

Additional observations from a re-analysis of the deposited data

How the results depend on the processing

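No probe called at low U was called in the opposite direction under any alternative, but the signs of some turned (below), and the number of calls depended on the settings. Against 1834 calls (64.5% higher) with 155 at low U only, scaling to 3 spike-in probes gave 13396 calls (99.3% higher) and 353 at low U only. No filter on dim probes gave 758 and 17, and slide as a block 3646 (52.99% higher) and 346, or 4156 (53.3%) and 388 with the disturbed blocks also left out. An adjusted p limit of 0.5 gave 8769 (51.6%) and 1896, and the methods' one-way test with Tukey's step 956 (68.5%) and 12. Only the low U and control arrays gave 1 call (100% higher), with 5723 probes at an unadjusted p below 0.05, or 622 (68.0%) with the disturbed blocks left out as well. Array weights gave 71 at low U only. Background correction by normexp, run on the median signal because the planned mean signal was not used here, gave 78.2% higher and 313 at low U only. Probes well above background on all 12 arrays gave 58.9% higher. The cause of each shift was not tested. Leaving out 1 array at a time gave 632 (without low U replicate 2) to 2800 calls (without control replicate 3), 61.5% to 76.3% higher, 24 to 478 at low U only, and 0 to 7 for low U against medium and high U (7 without medium U replicate 2). Any one low U array left out gave 632 to 667 calls, and control replicates 1 and 2 gave 792 and 709.

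The replicate block gave 1293 calls (853 higher, 440 lower) and 77 at low U only. The numbers do not pair the samples, since deviations of same-numbered low U and control arrays correlated at -0.25, -0.04 and -0.21. Low U and control arrays of the same slide correlated at 0.24, -0.04 and 0.16 on slides 1, 2 and 3. The pair at -0.04 holds low U replicate 2 and is the same in both sets. The main fit did not use slide.

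Of 134 probes of named genes, normexp turned the sign of MRPS9 (-0.10), MRPL33 (-0.20), GTF2A2 (-0.17), ADD1 (-0.15) and ARL3 (-0.018), all dim, and spike-in scaling that of DLST (0.070), EIF3A (0.086), EIF1B (0.069), CFB (0.14) and LSS (0.29). Without low U replicate 2, 106 stayed on the same side of the threshold and 28 were lost, and with the replicate block 9 were lost. With quantile normalization, the authors' value table, slide as a block or the disturbed blocks left out, all 134 stayed. With only the low U and control arrays, 127 were lost and 4 stayed on the same side of the threshold. Since 0 of the 1834 calls were kept in that fit, these 4 were uncalled in either fit. With the disturbed blocks left out as well, 95 stayed and 36 were lost.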

Other observations

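Some of the named genes outside the gene lists moved with more than 1 probe, and they were chosen after their values were seen. CREB3L3, a liver transcription factor anchored in the endoplasmic reticulum, fell at both probes. The brighter had 3.59, 3.28 and 3.52 at low U and 4.71, 4.77 and 4.90 in the control (-1.33), and the other had a log2 fold change of -1.27, not called after scaling to the spike-ins. SLC2A2, the glucose transporter of hepatocytes, had 5.55, 5.55 and 5.43 at low U and 3.77, 3.57 and 4.28 in the control (1.64), with 1.23 at its other probe. BCAP31, of the endoplasmic reticulum membrane, rose at both probes (2.03 and 1.59). Selenoproteins were not uniform. SELS, of protein degradation at the endoplasmic reticulum, changed by 1.48, whereas the selenoprotein P probes named SEPP1A and SEPP1B changed by -0.69 (0.033 after scaling to the spike-ins) and 0.80.

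Among probes without a name that rose were those for numbered contig 5664927, with 4.47, 5.18 and 4.93 at low U and 3.00, 1.74 and 1.54 in the control (log2 fold change 2.76), and 5429988 (2.71, well above background on 1 control array). Among probes without a name that fell, OM_UG27_56225308 and 5650026 were not well above background on any low U array and were at least 3.43-fold and at least 4.39-fold lower at low U. By origin of the probe sequence, 219 probes rose and 220 fell among 6647 from rainbow trout (Oncorhynchus mykiss) UniGene clusters, against 111 and 33 among 2036 from Atlantic salmon (Salmo salar) clusters and 850 and 393 among 20590 numbered contigs.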
